A study of Mus musculus with 6 samples.

Results

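Trim30a, Trim30b and Trim30d are neighbouring mouse genes of the tripartite motif (TRIM) family. They were chosen by their symbols from a table of 149 genes, and the authors had selected that table on the same difference described here, by a false discovery rate (FDR) and a fold change between groups. All 3 members were found, and no other gene with a Trim symbol is in the table. The libraries came from the reperfused region of hearts of male wild-type C57BL/6 mice, in which the left anterior descending coronary artery had been closed for 45 min and reopened for 24 h. The IR group (3 libraries) had this procedure alone. The TMAO+IR group (3 libraries) also drank water with 0.12% trimethylamine N-oxide (TMAO), a compound made in the liver from a product of gut bacteria, for 4 weeks before the procedure and during it. Every group carried the injury, so no value describes an uninjured heart. The labels do not name the animal behind each library, and a p-value here reflects variation among the libraries, whether biological or technical.

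TRIM proteins carry a RING finger, a B-box and a coiled coil, and many are ubiquitin ligases. The RING finger recruits the enzyme that carries ubiquitin, the coiled coil pairs the proteins, and a C-terminal domain, where present, binds the target. Trim30a is a gene of mouse innate immunity that is induced by interferon and by Toll-like receptor ligands, and its product is known as a negative regulator of Toll-like receptor signalling to NF-kB. The annotation in the authors' deposited table gives ubiquitin-protein transferase activity, innate immune response and defense response to virus for all 3 genes. For Trim30a it adds negative regulation of interleukin-6 and tumor necrosis factor production and of NLRP3 inflammasome assembly. The roles of Trim30b and Trim30d are less studied.

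The genes lie on the minus strand of chromosome 7 (GRCm38, GENCODE release M21). Trim30b (ENSMUSG00000052749) spans chr7:104355382-104369884, Trim30a (ENSMUSG00000030921) chr7:104409025-104465193 and Trim30d (ENSMUSG00000057596) chr7:104470014-104507849. They belong to a run of 11 annotated TRIM genes that also holds Trim6, Trim34a, Trim5, Trim12a, Trim34b, Trim12c, Trim30c and the pseudogene Trim30e-ps1. The 3 members are the ones in the deposited table, and the others were not analysed here. Trim30a and Trim30d encode full-length proteins, with coding sequences of 1488 and 1491 bases in 8-exon transcripts. The longest annotated coding sequence of Trim30b has 609 bases.

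The coding sequences are similar, which bears on how reads can be assigned. Trim30a and Trim30d share 90.2% of 1488 aligned coding bases and 82.7% of the encoded residues. Trim30b, with its shorter coding sequence, shares 85.2% of 603 aligned bases with Trim30a and 85.1% of 591 with Trim30d. The longest exact coding match of Trim30a and Trim30d runs over 275 bases, at coding bases 886 to 1160 of Trim30a and 889 to 1163 of Trim30d. In Trim30a it lies in 2 exons, at chr7:104411919-104411931 and chr7:104411408-104411669, and in Trim30d at chr7:104472884-104472896 and chr7:104472374-104472635. The longest exact match of Trim30b and Trim30d has 78 bases, within 1 exon of each gene, at chr7:104363702-104363779 and chr7:104484178-104484255. Both are shown because a read from within them fits either gene of the pair equally well (GENCODE, minus strand, 5′ to 3′).
Trim30a and Trim30d: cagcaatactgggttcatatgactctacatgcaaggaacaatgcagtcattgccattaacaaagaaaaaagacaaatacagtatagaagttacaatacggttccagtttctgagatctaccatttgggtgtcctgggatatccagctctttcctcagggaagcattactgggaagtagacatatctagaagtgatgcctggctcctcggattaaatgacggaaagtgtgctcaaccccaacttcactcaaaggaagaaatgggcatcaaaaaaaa
Trim30b and Trim30d: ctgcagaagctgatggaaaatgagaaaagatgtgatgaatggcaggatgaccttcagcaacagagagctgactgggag

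Outside such stretches the transcripts can be told apart. Of the distinct 100-base windows of the annotated Trim30a transcripts, 4.41% also occur exactly in another gene, and of those of Trim30d 4.57%. All of these windows are shared between Trim30a and Trim30d. No 100-base window of Trim30b occurs in another gene. Its 7742 windows, against 3992 for Trim30a and 3855 for Trim30d, pool 6 transcripts, of which 3 are protein-coding. The shares thus describe all annotated transcript sequence and not the coding part alone. With windows of 50 bases the shares were 5.98% for Trim30a, 7.49% for Trim30d and 1.48% for Trim30b. Allowing 2 mismatches, 16.2% of the 50-base windows of Trim30a, 17.7% of those of Trim30d and 2.21% of those of Trim30b matched another Trim30 gene. At 100 bases these shares fell to 4.76%, 5.11% and 0.0646%. The read length and the treatment of reads that fit several genes are not given in the sources used here, so the number of counts that could move between Trim30a and Trim30d was not tested.

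**Figure D1:**
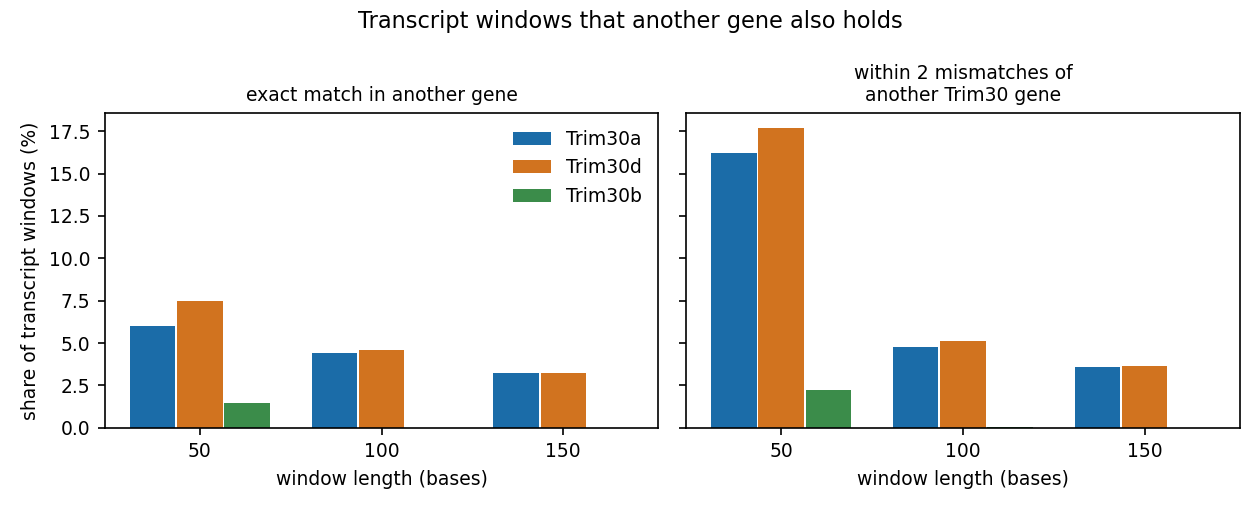
Share of the distinct transcript windows of each gene (y axis, percent) that occur exactly in any other annotated gene (left) or within 2 mismatches in another Trim30 gene (right), for windows of 50, 100 and 150 bases (x axis). Trim30a and Trim30d stand at 3.24% and 3.23% with exact windows of 150 bases, and Trim30b at 0.

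The promoters show a second likeness between Trim30a and Trim30d. RefSeq promoter windows (GRCm38.p6, 250 bases before to 50 bases after the start) matched all 3 genes by symbol, with a pair of starts for Trim30a. The windows of Trim30a at its upstream start (chr7:104465144-104465443) and of Trim30d (chr7:104507800-104508099) were the same at 93.6% of 295 aligned bases. The window of Trim30b (chr7:104358597-104358896) belongs to the start of Trim30b-205, a transcript with 477 coding bases that begins inside the gene. The upstream starts of Trim30b-201 and Trim30b-204 had no window, so they were not compared. The Trim30b-205 window had the same base as Trim30a at 57.1% of 266 aligned positions. The 3 windows are shown for this difference, minus strand, 5′ to 3′. Capitals mark matches to GAAANNGAA, a shortened core of the interferon-stimulated response element, searched on both strands.
Trim30a: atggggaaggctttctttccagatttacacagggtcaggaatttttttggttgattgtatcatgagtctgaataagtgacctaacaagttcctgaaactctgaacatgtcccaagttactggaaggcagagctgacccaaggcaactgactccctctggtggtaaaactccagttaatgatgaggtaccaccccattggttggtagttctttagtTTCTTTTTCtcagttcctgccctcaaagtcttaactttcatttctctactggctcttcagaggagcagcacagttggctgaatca
Trim30d: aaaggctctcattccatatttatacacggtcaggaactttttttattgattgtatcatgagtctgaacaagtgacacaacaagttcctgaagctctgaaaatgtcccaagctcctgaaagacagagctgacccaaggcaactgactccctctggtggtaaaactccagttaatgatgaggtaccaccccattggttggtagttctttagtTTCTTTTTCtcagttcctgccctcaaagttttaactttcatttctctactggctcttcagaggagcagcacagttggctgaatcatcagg
Trim30b: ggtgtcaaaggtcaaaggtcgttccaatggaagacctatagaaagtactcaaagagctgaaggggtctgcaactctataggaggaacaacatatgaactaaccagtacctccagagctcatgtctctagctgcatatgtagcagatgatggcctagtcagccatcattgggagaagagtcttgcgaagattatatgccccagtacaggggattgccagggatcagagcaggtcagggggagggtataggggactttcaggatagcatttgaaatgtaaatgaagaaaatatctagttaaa

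Trim30a and Trim30d each hold 1 such match, with the same letters, on the opposite strand. It begins 35 bases before the start in Trim30a and 40 bases before it in Trim30d. The second Trim30a window (chr7:104446076-104446375) holds 1 match as well, at base 254 of the window. Of all 32851 promoter windows 8.56% hold this motif. The window of Trim30b, at its internal start, holds none, and the upstream starts of this gene were not searched. None of the 4 windows holds TTCNNNGAA, a STAT site (8.30% of all windows), or GGGNNTTCC, a form of the NF-kB site (5.82%), so no match overlaps one of another motif. A match is a run of letters and not a measured binding site.

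All 3 genes had higher levels in TMAO+IR than in IR hearts, with fold changes of 2.15 for Trim30a, 2.19 for Trim30d and 2.29 for Trim30b at the recovered library depths. Scaling within the list, whose genes were selected for their change, brought the log2 fold changes to between 0.0295 and 0.174. Each of these was smaller than its standard error (0.216 to 0.273), so they give no direction. Of the 149 genes in the authors' deposited table, 81.9% are higher in TMAO+IR, and each listed gene passed the authors' limits. Because that selection used this contrast, the differences are given as a description without a test. Fold changes are TMAO+IR over IR and come from an edgeR fit of the counts of all 149 genes, with the standard error (SE) on the log2 scale. Levels are FPKM, the authors' count of fragments divided by transcript length and by library depth, as mean ± SD with n = 3 per group. The recovered depth ran from 18370770 to 22441959 fragments per library, and scaled counts are counts per 20000000 of these fragments. In heart tissue, more cells that express a gene and more RNA per cell cannot be told apart.

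Trim30a, the best studied member and the most abundant of the 3, had 3.15, 3.53 and 2.06 FPKM in IR replicates 1 to 3. In TMAO+IR replicates 1 to 3 it had 7.85, 6.20 and 4.76 FPKM. The groups did not overlap, and the lowest TMAO+IR library stood 1.35-fold above the highest IR library. By scaled counts the groups were apart, in either direction, in 97.3% of the 149 listed genes. The group levels were 2.91 ± 0.763 and 6.27 ± 1.55 FPKM. The fold change was 2.15 (log2 1.11 ± 0.37 SE). The counts behind these values ran from 174 (95% exact Poisson interval 149 to 202) in IR replicate 3 to 544 (499 to 592) in TMAO+IR replicate 1. Poisson intervals cover counting error only. In the authors' deposited table the log2 fold change of Trim30a was 1.11, with an FDR of 0.00291. By signed value, from the highest, this was rank 90 of the 149 genes, of which 122 are higher in TMAO+IR. The libraries of Trim30a varied more than counting alone gives. The SD of its scaled counts was 3.90 times the counting SD (the square root of the mean) in IR and 5.36 times in TMAO+IR.

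Trim30d, a full-length relative beside Trim30a, had 1.01, 0.67 and 0.42 FPKM in IR replicates 1 to 3. It had 1.71, 1.59 and 1.46 FPKM in TMAO+IR replicates 1 to 3. The groups did not overlap, as by scaled counts in 97.3% of the 149 listed genes. The spread was wider in IR (0.70 ± 0.296 FPKM) than in TMAO+IR (1.59 ± 0.125). The counts were 44, 37 and 29 in IR and 70, 86 and 70 in TMAO+IR, a fold change of 2.19 (log2 1.13 ± 0.33 SE). A count of 29 has a Poisson interval of 19.4 to 41.6, and one of 86 an interval of 68.8 to 106. The interval of IR replicate 1 reaches up to 59.1 and overlaps that of TMAO+IR replicate 1, which begins at 54.6. The SD of the scaled counts was 1.43 times the counting SD in IR and 0.755 times in TMAO+IR. In the authors' deposited table the log2 fold change of Trim30d was 1.18, rank 71 by signed value, with an FDR of 0.0177.

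Trim30b, whose annotated coding sequences are short, was the least abundant member. It had 0.39, 0.39 and 0.32 FPKM in IR replicates 1 to 3. In TMAO+IR replicates 1 to 3 it had 1.04, 0.84 and 0.91 FPKM. Of the 3 members its groups stood farthest apart. By FPKM the lowest TMAO+IR library was 2.15-fold above the highest IR libraries, and by scaled counts 1.95-fold above the highest. Groups were apart by scaled counts, in either direction, in 97.3% of the 149 listed genes. The counts were 30, 30 and 26 in IR and 62, 61 and 61 in TMAO+IR, a fold change of 2.29 (log2 1.20 ± 0.34 SE). The scaled counts of Trim30b varied less between libraries than counting alone gives, with an SD 0.583 times the counting SD in IR and 0.741 times in TMAO+IR. At 26 to 62 counts its values are nevertheless no more precise than the Poisson intervals, which run from 17.0 to 38.1 for the lowest and from 47.5 to 79.5 for the highest. In the authors' deposited table the log2 fold change of Trim30b was 1.34, rank 41 by signed value, with an FDR of 0.0184. That table's largest FDR is 0.0487 and its smallest absolute log2 fold change 1.001.

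**Figure D2:**
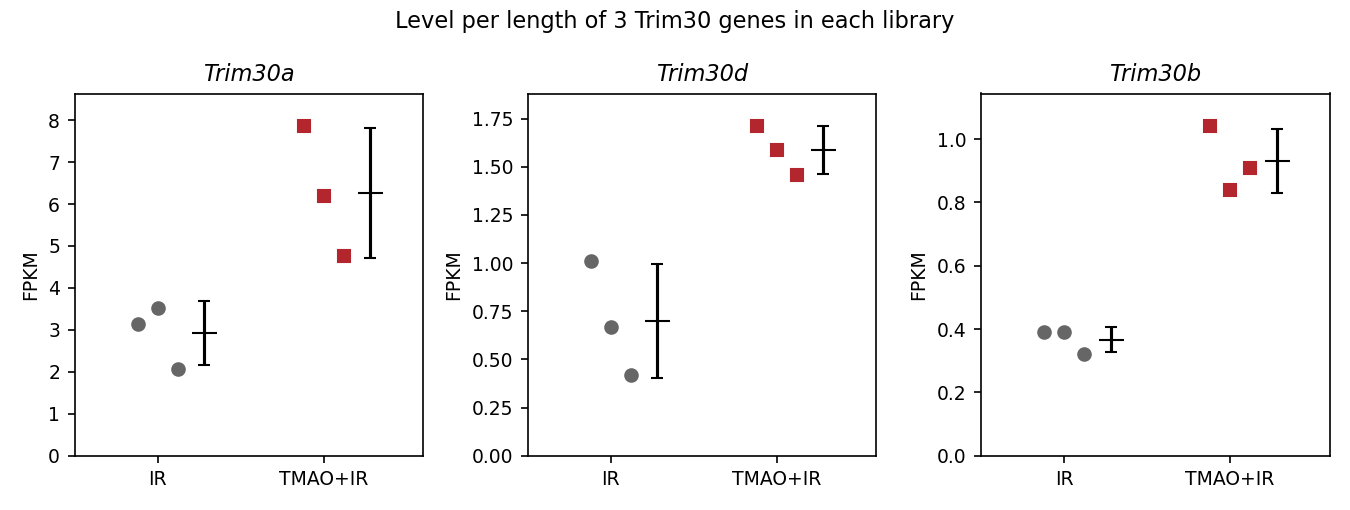
FPKM (y axis, from 0) of Trim30a, Trim30d and Trim30b in the 3 IR libraries (grey circles) and the 3 TMAO+IR libraries (red squares), replicates 1 to 3 from left to right, with the group mean ± SD as black bars. In each gene the lowest TMAO+IR library lies above the highest IR library, and IR replicate 3 is the lowest of all.

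The scaled counts of all 3 members were apart between the groups, as in 97.3% of the 149 listed genes. IR replicate 3 was the lowest library for each of the 3. This holds for 79 of the 122 listed genes that are higher in TMAO+IR, so the low value was shared by most of the list. TMAO+IR replicate 1 was the highest library by scaled counts for Trim30a and Trim30b, and TMAO+IR replicate 2 for Trim30d. Over those 122 genes the highest library was TMAO+IR replicate 1 in 46 and TMAO+IR replicate 2 in 65. Without IR replicate 3 the log2 fold change was 0.91 for Trim30a, 0.97 for Trim30d and 1.11 for Trim30b.

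The order of the members by level per length was Trim30a, then Trim30d, then Trim30b in each of the 6 libraries. This order was not used in choosing the genes. The FPKM of Trim30a was 7.18 times that of Trim30b (geometric mean, range 5.23 to 9.05) and 4.09 times that of Trim30d (3.12 to 5.27). That of Trim30d was 1.75 times that of Trim30b (1.31 to 2.59). Each ratio was above 1 in 6 of 6 libraries. Each of the 3 pairs gave p = 0.03125, adjusted p = 0.03125 over the 3 pairs (exact sign-flip permutation test of the log2 ratio within libraries, 2-sided), which is the smallest p that 6 libraries allow. Counts per length of the longest annotated transcript, a comparison chosen after the data were seen, gave the same order. The size of the ratios was less stable than their order. The log2 ratio of Trim30a over Trim30b was 2.84 by FPKM and 1.70 with 1 FPKM added. That of Trim30a over Trim30d was 2.03 by FPKM and 2.66 by counts. That of Trim30d over Trim30b was smaller, at 0.81 by FPKM and 0.31 by counts. In IR replicate 3 these 2 genes had 29 counts (Poisson interval 19.4 to 41.6) and 26 counts (17.0 to 38.1), so their intervals overlap.

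Summed over the members, the level was 3.98 ± 1.02 FPKM in IR (2.80 to 4.59) and 8.79 ± 1.74 FPKM in TMAO+IR (7.13 to 10.6). The log2 fold change of the summed scaled counts was 1.13. Unlike the summed FPKM, which divides each gene by its own length, summed counts do not depend on which of the 3 genes a shared read was given to. The makeup of the sum was similar in both groups. Shares differ between groups only as far as the fold changes of the members differ. Each member was listed for its change on this contrast, so this likeness is not independent of the selection. Trim30a held 73.2% ± 3.85 of the summed FPKM in IR and 70.9% ± 3.74 in TMAO+IR. Trim30d held 17.3% ± 4.28 and 18.3% ± 2.17, and Trim30b 9.50% ± 1.67 and 10.8% ± 1.73. The ranges of the groups overlapped for each of these shares. By summed counts, without regard to length, Trim30a held 78.1% ± 2.90 in IR and 77.3% ± 3.21 in TMAO+IR.

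Counts and FPKM did not describe Trim30d and Trim30b in the same way. The count, the FPKM and the depth of a library together imply the transcript length by which the authors' FPKM was divided. For Trim30a this length was 3764 to 3776 bases in the 6 libraries, beside 3771 bases for its only protein-coding transcript in GENCODE, Trim30a-201. For Trim30d it was 2106, 2512 and 3077 bases in IR replicates 1 to 3 and 2228, 2512 and 2302 bases in TMAO+IR. These values lie between the lengths of Trim30d-201 (1904 bases) and Trim30d-202 (3282 bases). Trim30d-201 holds the full coding sequence, and Trim30d-202 has one of 1041 bases. Another annotated transcript, Trim30d-203, has 635 bases. Rounding of the FPKM to 2 decimals allows 3041 to 3114 bases in IR replicate 3 and 2096 to 2117 in IR replicate 1, so rounding does not span the difference. Within IR, the library with the fewest Trim30d counts also had the longest implied length, and the library with the most counts had the shortest.

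For Trim30b the implied length was 3719, 3498 and 3620 bases in IR replicates 1 to 3, and 3245, 3372 and 3219 bases in TMAO+IR. The groups did not overlap, and their means were 3613 ± 111 and 3279 ± 82.2 bases. Beyond the rounding of FPKM, the implied lengths were apart between the groups in 8 of 146 listed genes with FPKM above 0 in each library (5.48%), among them Trim30b but not Trim30a or Trim30d. Trim30b was singled out after its values were seen. Counts and recovered depths were taken as exact here, so no error other than the rounding of FPKM was allowed for. GENCODE lists 6 transcripts of Trim30b, 3 of them protein-coding with lengths of 2771, 3042 and 4287 bases. The transcripts with a retained intron have 582, 2771 and 3514 bases. The shorter implied length in TMAO+IR goes with the larger fold change by FPKM (2.54) than by counts (2.29). Since the FPKM entered the authors' fold change, the difference in implied length was not tested, and the share of each transcript is not in the values used here.

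**Figure D3:**
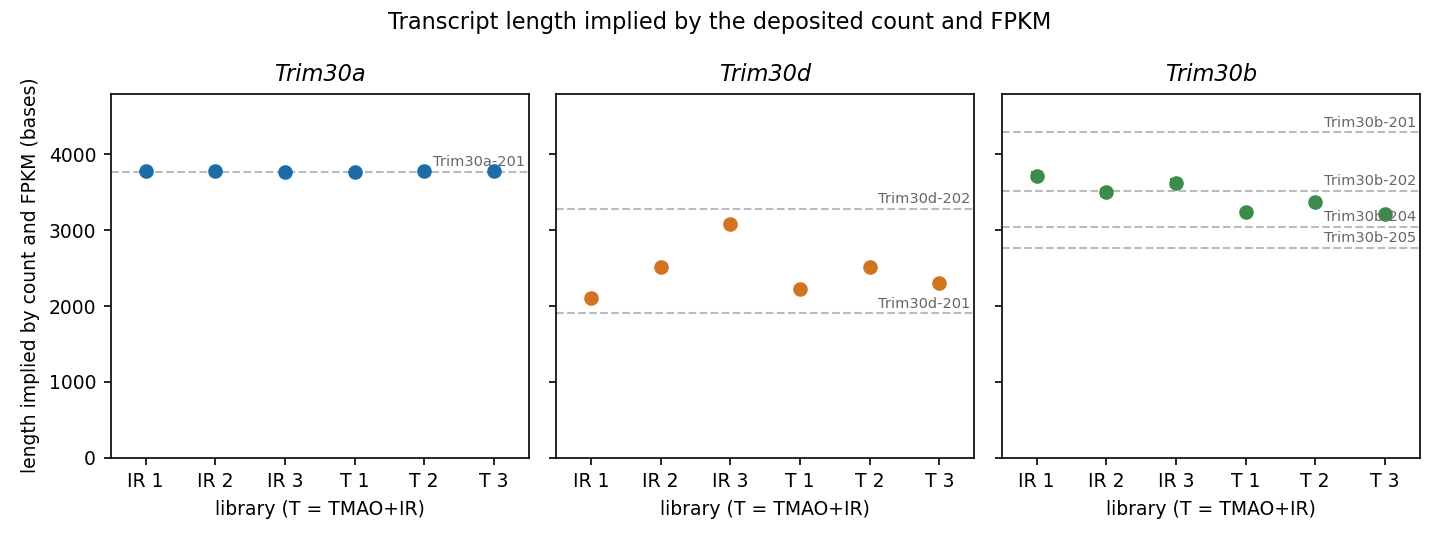
Transcript length in bases (y axis) implied by count, FPKM and depth in each of the 6 libraries (x axis, T stands for TMAO+IR), with error bars for the rounding of FPKM, which are mostly smaller than the points. Dashed lines are the longer annotated transcripts, and the points of Trim30a stay on 3771 bases whereas those of Trim30d run from 2106 to 3077.

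The listed genes nearest to each member were found by the root mean square difference of centred log2 scaled counts over the 6 libraries, among 138 other genes with a mean of at least 20 scaled counts. This measure includes the difference between groups, on which the whole list was selected. Nearest to Trim30a were Flvcr1 (0.0758), a membrane transporter, Jmjd1c (0.0976), of the histone demethylase family, and the platelet chemokine gene Ppbp (0.112). The median difference over all 138 genes was 0.329. Trim30d ranked 28 and Trim30b 31 of 138 for Trim30a. Nearest to Trim30d were the cytokine gene Il6 (0.104), Skil (0.118), a repressor of TGF-beta signalling, and Samd9l (0.119), an interferon-induced antiviral gene, and Trim30b ranked 7. Nearest to Trim30b were Il6 (0.103), Naf1 (0.139), which serves small nucleolar ribonucleoprotein assembly, and Mcoln2 (0.145), a lysosomal cation channel, and Trim30d ranked 4. Il6, at 23.86, 21.34 and 18.69 FPKM in IR replicates 1 to 3 and 51.43, 49.61 and 42.98 in TMAO+IR, was the first gene for both Trim30b and Trim30d.

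**Figure D4:**
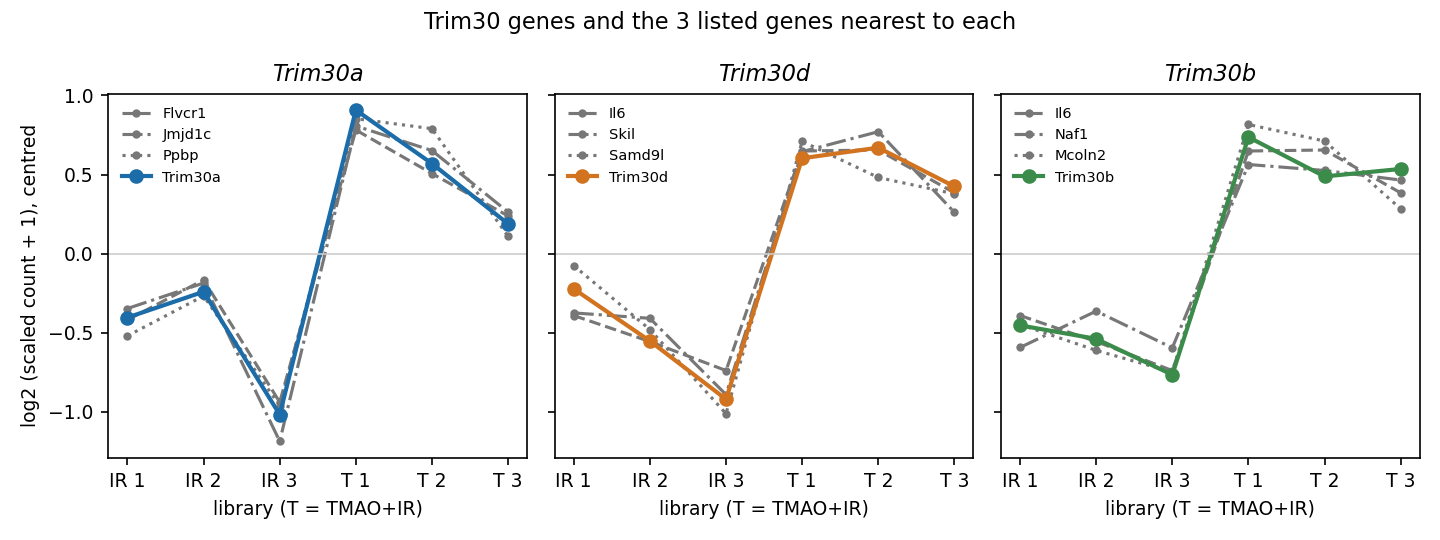
Log2 (scaled count + 1), centred on the mean of each gene (y axis), in the 6 libraries (x axis, T stands for TMAO+IR) for each Trim30 gene (coloured) and the 3 listed genes nearest to it (grey). Trim30a rises and falls more within the groups than Trim30b, and each gene has its lowest point in IR replicate 3.

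Interferon-stimulated genes were the list closest to the known regulation of Trim30a. Of 77 genes in that list 9 are in the deposited table. All 9 were higher in TMAO+IR, as were 81.9% of all 149 listed genes. In the authors' deposited table the median log2 fold change was 1.17 for all 149 genes and 1.22 for the 122 higher ones. It was 1.07 for the 9 interferon-stimulated genes. The most abundant were Iigp1, an interferon-inducible GTPase (7.43 ± 2.25 against 17.8 ± 1.32 FPKM in IR and TMAO+IR), and Ifi203, of the Ifi200 family (5.94 ± 0.876 against 13.04 ± 3.56). Ifi204, of the same family, stood at 4.79 ± 0.771 against 10.01 ± 2.50 FPKM and Ifit1, which binds foreign RNA, at 3.51 ± 0.0436 against 7.14 ± 1.72. Summed over the 9 genes, the level was 27.24, 31.59 and 23.66 FPKM in IR replicates 1 to 3 and 69.81, 64.48 and 49.98 in TMAO+IR. The groups did not overlap in this sum, and IR replicate 3 was the lowest library. Scaled counts of single genes did not overlap between the groups in 97.3% of the 149 listed genes. Sequence shared within the Ifi200, Ifit and Slfn families was not measured here.

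Trim30a is known to act on the Toll-like receptor, NF-kB, NLRP3 and STING pathways. Of 60 genes in a list of these pathways and related sensors, 3 are in the table, and an action of Trim30a on these was not tested. The DNA sensor gene Tlr9 had 0.427 ± 0.133 FPKM in IR and 0.92 ± 0.114 in TMAO+IR, and Aim2, another DNA sensor, 0.173 ± 0.140 and 0.867 ± 0.257. Nlrc5, a regulator of MHC class I genes, had 1.52 ± 0.408 and 4.47 ± 0.947 FPKM. All 3 were thus higher in TMAO+IR, as were 81.9% of all 149 listed genes. Aim2 is near the floor, with 6.77, 10.9 and 1.78 scaled counts in IR replicates 1 to 3. Its FDR of 0.0487 is the largest in the authors' deposited table. The other genes of this list, Nlrp3 and the Tab genes included, were not analysed here.

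Markers of infiltrating blood cells that are in the table were higher in TMAO+IR. So were 81.9% of all 149 listed genes and the listed markers of the heart's own cells. Of 20 monocyte and macrophage markers 2 are in the table, Ccr2 and Chil3, with a summed level of 1.06 to 1.83 FPKM in IR and 2.77 to 6.11 in TMAO+IR. Of 18 neutrophil markers 2 are in the table, Mmp8 and Slfn4, with 4.40 to 8.06 FPKM in IR and 12.2 to 14.6 in TMAO+IR. Slfn4 is also in the list of interferon-stimulated genes. None of these 4 markers had a mean of 0 in a group. Of 19 lymphocyte and 10 dendritic cell markers none is in the table, and unlisted markers were not analysed here. Of the heart's own cells the table holds the cardiomyocyte gene Myh7 (1 of 14 markers), the fibroblast gene Tnc (1 of 12) and the endothelial gene Ackr1 (1 of 12). The summed levels were 6.29 to 12.5 FPKM in IR and 27.5 to 56.5 in TMAO+IR for Myh7, 1.21 to 2.32 and 2.96 to 4.90 for Tnc, and 0.80 to 0.88 and 1.83 to 2.58 for Ackr1, so the tissue label could be checked on 1 cardiomyocyte gene only. The part of these cells in the Trim30 values was not tested.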

How the data were processed

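Oligo(dT)-enriched RNA of 6 heart libraries was sequenced, 3 IR and 3 TMAO+IR. The submitters' processing notes name GRCm38, StringTie 1.3.1, HISAT2, edgeR, fastp 0.18.0, DESeq2 and Bowtie2 2.2.8, without roles. Groups follow the sample titles, and T-IR columns were read as TMAO+IR. The table deposited by the authors holds raw counts, FPKM with 2 decimals, group means, log2 fold changes of these means, and p-values with FDR. It lists only selected genes, so library sizes were recovered from count to FPKM ratios (86 genes with at least 1 FPKM in each library, and 12 genes with 1 transcript for the absolute scale).

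Counts were fitted with edgeR 4.0.16 (quasi-likelihood, R 4.3.3) over 149 genes without a filter. The fit was checked on simulated data. Its SE is the coefficient over the root of the F statistic. Alternatives were DESeq2 1.42.0, other scalings, FPKM with pseudocounts, a count filter, a block and leaving out libraries. Members and lists were chosen with earlier results of these data known. Named genes are the members, the most abundant listed genes of each list (at most 4) and the 3 nearest to each member. Sequence values come from GENCODE M21 and RefSeq (Biopython 1.88).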

Additional observations from a re-analysis of the deposited data

How the results depend on the processing

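Scaling within the list, which centres genes chosen for their change, moved the median log2 fold change of all 149 genes by -1.04 (TMM) or -1.09 (DESeq2 size factors). With TMM the log2 fold change was 0.0797 for Trim30a, 0.174 for Trim30b, 0.10 for Trim30d and 0.0914 for their sum. With DESeq2 size factors these values were 0.0295, 0.12, 0.0523 and 0.0410. The value of each member was smaller than its SE (0.216 to 0.273), so its direction was not resolved. No SE was computed for the sum. With a pseudocount of 1 FPKM the log2 fold change was 0.50 for Trim30b and 0.62 for Trim30d, since their levels are near or below the pseudocount. The share of Trim30a was 78.1% (IR) and 77.3% (TMAO+IR) by counts. The other alternatives moved these values by less than the spread between libraries. Trim30b has no value with a minimum mean of 50 counts.

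Leaving out 1 library gave log2 fold changes of 0.91 to 1.27 for Trim30a, 1.11 to 1.27 for Trim30b, 0.97 to 1.32 for Trim30d and 0.91 to 1.28 for the sum. The mean log2 level ratio was then 2.78 to 2.94 for Trim30a over Trim30b, 1.96 to 2.11 for Trim30a over Trim30d and 0.70 to 0.89 for Trim30d over Trim30b, each with p = 0.0625, the smallest that the exact test allows with 5 libraries. The other alternatives kept the order of the levels at p = 0.03125 (exact permutation test), but the size of the ratios moved. From log2 2.84, 2.03 and 0.81 for Trim30a over Trim30b, Trim30a over Trim30d and Trim30d over Trim30b, they went to 1.70, 1.33 and 0.36 with 1 FPKM added and to 2.98, 2.66 and 0.31 as ratios of counts. With 0.1 FPKM added they were 2.63, 1.92 and 0.71, and with counts per length of the longest transcript 3.16, 2.46 and 0.70.

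The labels number the libraries without naming pairs. Across 139 genes, which are not independent replicates, deviations from the group means correlated at -0.24, 0.29 and -0.02 within the numbers 1 to 3, and only number 2 matched best with its own. With the replicate number as a block the log2 fold changes were 1.11, 1.20 and 1.15 for Trim30a, Trim30b and Trim30d and 1.13 for the sum. Depth limits Trim30b and Trim30d, with 26 to 86 counts a library.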
